A study of Mus musculus with 3 samples.

Results

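Cluster 1 of the deposited clustering is a set of 1870 of 7598 CD45-positive thalamic cells, or 24.6% of all cells, and was given the working name inflammatory microglia. Its members are the cells that the authors' cell table assigns to that cluster number. They were described against the sum of the 5728 cells of clusters 0, 2, 3, 4 and 5. The cluster was made of cells from 1 library almost alone, WT IL-33, which gave 1815 of its cells. The cKO IL-33 library gave 35 and the WT vehicle library 20. Of the 2202 WT IL-33 cells 82.4% (80.8 to 84.0%) were members, against 1.30% (0.909 to 1.81%) of 2687 from cKO IL-33 and 0.738% (0.452 to 1.14%) of 2709 from WT vehicle, with exact Clopper-Pearson 95% intervals. WT IL-33 mice carried 1 copy of Cx3cr1-creER, which places an inducible recombinase at the locus of the fractalkine receptor, which microglia and other macrophages use, and received IL-33 into the cerebral ventricles. cKO IL-33 mice carried that heterozygous allele and homozygous floxed ST2 (gene Il1rl1), the chain that binds IL-33, and also received IL-33. WT vehicle mice were recombinase heterozygotes that received vehicle. All groups thus carried the recombinase, and tissue was taken 4 hours after injection. The labels state neither how old the mice were nor how many stand behind a library.

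IL-33 is a cytokine of the IL-1 family that signals through ST2 and the shared accessory chain IL1RAP to MYD88, IRAK kinases, TRAF6 and NF-kB. NF-kB raises chemokines, cytokines and adhesion molecules and also its own inhibitors, which end the response. Microglia, the resident macrophages of brain tissue, keep a set of so-called homeostatic genes (P2ry12, Sall1, Tmem119 and others) that depends on TGF-beta, and they are known to lower several of these genes when they are activated.

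With 1 library per group, and with cells clustered on the genes themselves, no difference between cluster 1 and the other clusters has a test. Levels are UMIs (unique molecular identifiers, which count single captured RNA molecules) summed over cells and scaled to a common total (CPM). Intervals are exact, at 95%, and cover counting error only. The WT IL-33 library held 12127214 UMIs, that of cKO IL-33 17480958 and that of WT vehicle 18269042. A cell had a median of 4127 UMIs and 1857.5 genes in cluster 1, against 5235.5 UMIs and 2185 genes in the other clusters. The libraries also differed in the deposited sex call, which was female for 50.3% of cells from WT IL-33, for 98.5% from cKO IL-33 and for 0.295% from WT vehicle. Of female-called WT IL-33 cells 79.4% were in cluster 1, as were 85.5% of male-called ones, against the 1.30% of the mostly female cKO IL-33 library and the 0.738% of the mostly male WT vehicle library. Il1rl1 was at 12.8 CPM in the cKO IL-33 cells outside cluster 1 and at 11.5 CPM in the WT vehicle cells outside it. A 3' tag counts RNA whether or not the floxed part is present, so these values do not check the deletion. 2 barcodes occurred in 2 libraries each, and 1 of them had a cell in cluster 1.

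The name was first checked against markers. All 1870 cells held UMIs of at least 3 of 8 microglial markers (among them P2ry12, Tmem119, Cx3cr1, Sall1, Siglech, Gpr34 and Fcrls), and all 8 of these were above 10 CPM in the sum of the cluster. Summed, the 8 microglial markers were lower in cluster 1, at 12281 CPM against 20173 CPM in the other clusters. P2ry12, Gpr34 and Sall1 were among the lower ones, as given further on. Cx3cr1, the fractalkine receptor, was not lower, at 3086 CPM in cluster 1 and 2729 CPM in the other clusters. Markers of other cells were low in cluster 1. The neutrophil genes S100a8, S100a9, Ly6g and Retnlg, the border macrophage genes Cd163 and Lyve1, the monocyte genes Ly6c2 and Chil3, the NK cell genes Nkg7, Gzma and Ncr1, and the T cell genes Cd3d and Trac were all at 0 UMIs. Summed over each list, markers of border macrophages reached 10.0 CPM in cluster 1 and 84.6 CPM in the other clusters, those of monocytes 10.6 CPM in cluster 1 and 44.9 CPM outside, and those of dendritic cells 19.3 CPM in cluster 1 and 9.90 CPM outside. The B cell list reached 141 CPM in cluster 1 and 57.7 CPM in the other clusters, of which Cd79b alone made 135 CPM in cluster 1. The Cd79b UMIs were in 41.8% of cluster 1 cells and 28.4% of other cells. The neuron, astrocyte, mast cell, neutrophil, NK cell and T cell lists summed to under 2 CPM each in cluster 1, that of endothelium to 11.9 CPM and that of oligodendrocytes to 34.2 CPM, of which Mbp made 25.1 CPM. The WT IL-33 cells thus carried microglial markers beside the inflammatory ones described next, and the 55 members from the other libraries are described further on.

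The 8 genes given as markers of the cluster are 3 chemokines, 2 cytokines, 2 genes of the NF-kB and TNF response and a scavenger receptor. All 8 were at least 35.6-fold higher in cluster 1 than in the other clusters. Ccl4, a chemokine that draws in monocytes and T cells, was the most abundant, with 5674 CPM (WT IL-33), 1819 CPM (cKO IL-33) and 84.1 CPM (WT vehicle) in cluster 1. In the other clusters it had 1557 CPM (WT IL-33), 19.5 CPM (cKO IL-33) and 14.5 CPM (WT vehicle). Summed over libraries it was at 5535 CPM in cluster 1 and 85.9 CPM in the other clusters, a ratio of 64.4 (62.2 to 66.8). Ccl3, its neighbour on chromosome 11 and a ligand of CCR1, had 3672 CPM (WT IL-33), 793 CPM (cKO IL-33) and 75.7 CPM (WT vehicle) in cluster 1, against 1063 CPM (WT IL-33), 28.0 CPM (cKO IL-33) and 15.4 CPM (WT vehicle) in the other clusters. Both chemokines were thus also high in the few cKO IL-33 cells of the cluster and far lower in its WT vehicle cells.

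Ccl22, a ligand of CCR4 made by mature dendritic cells and activated macrophages, was at 641 CPM in the WT IL-33 cells of cluster 1 and at 0 UMIs in its cKO IL-33 and WT vehicle cells. A count of 0 there allows up to 13.9 CPM (35 cells) and 25.2 CPM (20 cells), the level of 3 counts. In the other clusters Ccl22 had 147 CPM (WT IL-33), 0.0579 CPM (cKO IL-33) and 0.771 CPM (WT vehicle). Il12b, the p40 subunit shared by IL-12 and IL-23, had 1381 CPM (WT IL-33), 0 CPM (cKO IL-33) and 8.41 CPM (WT vehicle) in cluster 1, the last being 1 UMI. Outside cluster 1 it was at 376 CPM in WT IL-33 and was held by 1 UMI in each of the other libraries. Il1b, which encodes the inflammasome-processed cytokine IL-1 beta, had 1320.4 CPM (WT IL-33), 102 CPM (cKO IL-33) and 0 CPM (WT vehicle) in cluster 1, against 375 CPM (WT IL-33), 1.27 CPM (cKO IL-33) and 0.661 CPM (WT vehicle) in the other clusters. The pair of cytokines was therefore near 0 outside WT IL-33 cells, apart from 22 Il1b UMIs in 5 cKO IL-33 cells of the cluster.

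Nfkbiz, a nuclear IkB protein that NF-kB needs to induce a second set of genes, had the lowest ratio of the 8, and 86.8% of cluster 1 cells held a UMI of it against 9.48% of other cells (82.6% and 5.33% after thinning to 3000 UMIs). It had 988 CPM (WT IL-33), 97.4 CPM (cKO IL-33) and 50.5 CPM (WT vehicle) in cluster 1, against 319 CPM (WT IL-33), 13.2 CPM (cKO IL-33) and 13.4 CPM (WT vehicle) in the other clusters. Tnfaip2, a gene induced by TNF, had 1168 CPM (WT IL-33), 41.8 CPM (cKO IL-33) and 33.6 CPM (WT vehicle) in cluster 1, against 255 CPM (WT IL-33), 6.37 CPM (cKO IL-33) and 5.07 CPM (WT vehicle) in the other clusters. Marco, a class A scavenger receptor, had 353 CPM (WT IL-33), 0 CPM (cKO IL-33) and 67.3 CPM (WT vehicle) in cluster 1, where the last value is 8 UMIs of 1 cell, against 66.2 CPM (WT IL-33), 0 CPM (cKO IL-33) and 0.165 CPM (WT vehicle) in the other clusters. For each of the 8 genes, WT IL-33 cells of cluster 1 were the highest of the 6 sets of cells.

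**Figure D1:**
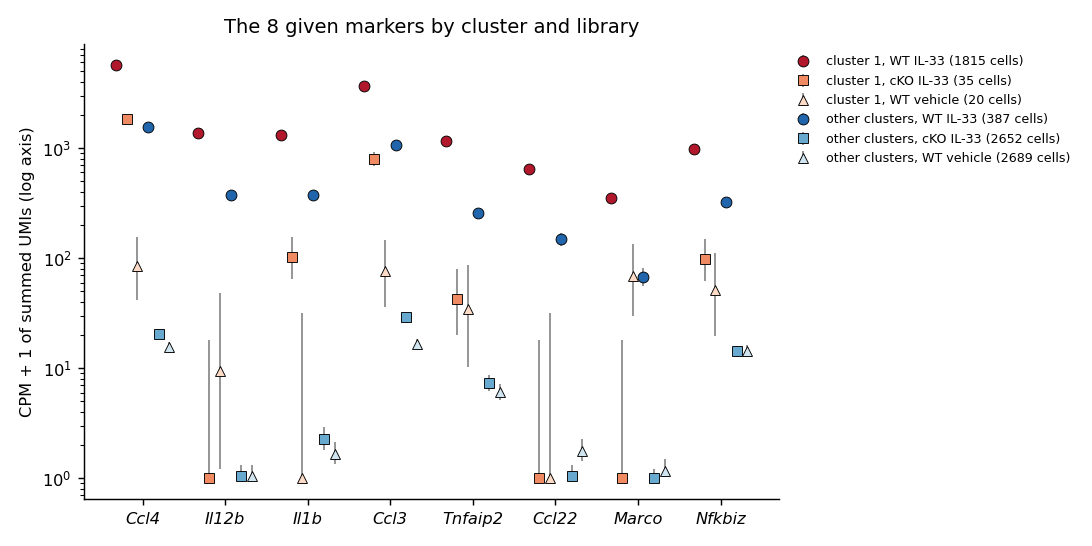
Levels of the 8 given markers (CPM + 1, log axis) in cluster 1 and in the other clusters of each library, with exact Poisson 95% intervals as bars. WT IL-33 cells of cluster 1 are highest for every gene, from 353 CPM for Marco to 5674 CPM for Ccl4, and the other WT IL-33 cells lie above the other cells of cKO IL-33 and WT vehicle.

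The marker genes lie on several chromosomes of GRCm38, by symbol in the GENCODE annotation. Ccl3 (chr11:83647844-83649355, minus strand), Ccl4 (chr11:83662584-83664683, plus strand) and Il12b (chr11:44400063-44414033, plus strand) share a chromosome, and Il1b (chr2:129364570-129371139, minus strand) does not. Promoter windows of RefSeq (GRCm38.p6), 250 bases before a gene's start, were searched on both strands for 2 spellings of the NF-kB motif. The narrow one reads GGGA, any base, then TTTCC, and the wide one, which contains it, reads GGGA, any 4 bases, then CC. Both spellings were chosen after matches had been looked at. Windows were in the table for 6 of the 8 markers, all but Ccl4 and Nfkbiz. The narrow spelling was in 0.356% of all 32851 windows and the wide one in 17.6%. Of the genes at least 2-fold higher in cluster 1, 749 had a window and 30.8% of these held the wide spelling, against 27.6% of 783 genes at least 2-fold lower and 25.6% of 7081 measured genes. These shares lie close together. The narrow spelling was in windows of 7 of the 749 higher genes and 3 of the 783 lower genes. Shown here are 2 windows with the narrow spelling, from genes 4.82-fold and 315-fold higher in cluster 1, and the 2 given markers with the wide one, written along the gene's own strand with the match in capitals. The match lies on the opposite strand for Nfkbia, Ccl22 and Marco.
Nfkbia: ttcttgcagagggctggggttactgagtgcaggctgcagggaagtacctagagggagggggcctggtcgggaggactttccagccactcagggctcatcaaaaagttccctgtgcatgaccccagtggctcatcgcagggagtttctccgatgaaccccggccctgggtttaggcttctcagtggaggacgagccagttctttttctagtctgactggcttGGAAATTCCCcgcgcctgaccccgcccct
Cxcl2: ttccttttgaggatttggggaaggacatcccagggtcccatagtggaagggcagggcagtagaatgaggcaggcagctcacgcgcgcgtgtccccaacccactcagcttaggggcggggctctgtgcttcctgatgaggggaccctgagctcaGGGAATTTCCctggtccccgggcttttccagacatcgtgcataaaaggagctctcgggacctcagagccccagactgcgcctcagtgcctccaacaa
Ccl22: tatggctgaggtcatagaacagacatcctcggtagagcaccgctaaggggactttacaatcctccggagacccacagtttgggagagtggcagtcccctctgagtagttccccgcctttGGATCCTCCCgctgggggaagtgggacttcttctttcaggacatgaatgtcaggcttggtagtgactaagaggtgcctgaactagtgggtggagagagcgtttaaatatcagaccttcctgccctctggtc
Marco: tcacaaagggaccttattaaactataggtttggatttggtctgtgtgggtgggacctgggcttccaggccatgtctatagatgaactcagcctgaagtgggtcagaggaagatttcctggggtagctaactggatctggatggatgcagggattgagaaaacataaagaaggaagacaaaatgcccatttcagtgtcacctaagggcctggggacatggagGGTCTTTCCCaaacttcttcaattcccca
The windows are chr12:55492648-55492897 (minus strand) for Nfkbia, chr5:90903649-90903898 (plus strand) for Cxcl2, chr8:94745434-94745683 (plus strand) for Ccl22 and chr1:120505025-120505274 (minus strand) for Marco. The match begins 29 bases before the start of Nfkbia, 97 before Cxcl2, 131 before Ccl22 and 29 before Marco. A match of letters is a description and not a binding site.

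Across the table, 8836 genes reached 10 CPM in cluster 1 or in the other clusters and are called measured. Of these, 934 (10.6%) were at least 2-fold higher and 1034 (11.7%) at least 2-fold lower in cluster 1, and their median log2 ratio was 0.0039. A ratio of 10-fold was passed by 125 genes upward and 45 downward. The gene lists below were read against those shares, and since the same values formed the clusters, their counts are a description. Counts within WT IL-33 have their own shares. Against the rest of that library, 2.78% of measured genes were at least 2-fold higher in cluster 1 and 6.87% lower. Against its clusters 0 and 2, 6.9% were higher and 10.7% lower. The highest log2 ratios, beside those of the markers, belonged to Ccr7, Saa3, Ch25h, Gpr18, Gadd45b, Zfp811, Hcar2 and Cd44. Ccr7, the receptor that guides dendritic cells to lymph nodes, was at 299 CPM in cluster 1 and 2.40 CPM in the other clusters (ratio 125, 101 to 156). Its UMIs outside cluster 1 were all in WT IL-33 cells.

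Among chemokines, 9 of 10 measured CC members and 4 of 4 CXC members were at least 2-fold higher, with median log2 ratios of 4.21 for CC and 3.90 for CXC genes over all libraries. Within WT IL-33 the CXC median was -0.36, with log2 ratios of -2.83 for Cxcl10 and -0.36 for Cxcl13. Ccl12, a mouse ligand of CCR2, was the most abundant, at 5703 CPM in cluster 1 and 507 CPM in the other clusters. Ccl2, another CCR2 ligand, was at 725 CPM in cluster 1 and 36.2 CPM in the other clusters (ratio 20.03, 18.9 to 21.2). Ccl5 was at 689 CPM in cluster 1 and 42.2 CPM in the other clusters. Ccl6 was within 2-fold, at 65.7 CPM in cluster 1 and 76.2 CPM in the other clusters. Cxcl16, a membrane-bound ligand of CXCR6, was broad, with UMIs in 92.7% of cluster 1 cells and 21.1% of other cells. Cxcl2, a ligand of the neutrophil receptor CXCR2, and Cxcl13, a ligand of the B cell receptor CXCR5, were narrow. Cxcl2 had 367 UMIs in 3.53% of cluster 1 cells against 4 UMIs outside, and Cxcl13 had 591 UMIs in 2.19% of cluster 1 cells against 125 outside.

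In the list of cytokines and growth factors, 15 genes were measured, of which 8 passed 2-fold upward and 1 downward (median log2 ratio 1.57). Tnf was at 421 CPM in cluster 1 and 12.4 CPM in the other clusters (ratio 33.9, 30.8 to 37.4). Il1rn, the secreted antagonist of the IL-1 receptor, was at 70.3 CPM in cluster 1 and 1.32 CPM in the other clusters. Ebi3, the subunit that IL-27 shares with IL-35, was at 495 CPM in cluster 1 and 47.3 CPM in the other clusters. The member that was lower was Igf1, a growth factor, at 2.68 CPM in cluster 1 and 14.2 CPM in the other clusters.

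Most NF-kB subunits and inhibitors were higher over all libraries. Of 5 subunits, Nfkb2 (10.3-fold), Relb (6.49-fold) and Nfkb1 (3.04-fold) were at least 2-fold higher. Rel and Rela were within 2-fold, at 224 and 82.4 CPM in cluster 1 and at 122 and 59.5 CPM in the other clusters. Of 11 genes listed as feedback inhibitors, 10 were higher (median log2 ratio 2.54). They include the given marker Nfkbiz, which, as stated above, NF-kB needs to induce other genes. Nfkbia, the IkB protein that holds NF-kB in the cytoplasm, was at 804 CPM in cluster 1 and 167 CPM in the other clusters. Tnfaip3, the ubiquitin-editing enzyme A20, was at 234 CPM in cluster 1 and 25.03 CPM in the other clusters. Inside WT IL-33 the differences from the rest of that library were smaller. There 0 of 5 subunits and 3 of 11 listed inhibitors were at least 2-fold higher in cluster 1, against 2.78% of measured genes. Against clusters 0 and 2 of WT IL-33, 2 of 5 subunits and 5 of 11 listed inhibitors were at least 2-fold higher, against 6.9% of measured genes. Nfkb1 was 2.08-fold higher there, Relb 1.39-fold and Nfkbia 1.48-fold. Feedback inhibitors of cytokine and MAP kinase signals were higher in 6 of 7 measured cases. Socs3, an inhibitor of JAK-STAT signals, was at 335 CPM in cluster 1 and 30.1 CPM in the other clusters, and Dusp2, a MAP kinase phosphatase, at 168 CPM in cluster 1 and 5.69 CPM in the other clusters.

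The IL-33 receptor pathway itself differed little by comparison. Of 14 measured members, 2 were higher and 1 lower, near the background shares in both directions, and the median log2 ratio was 0.03. Il1rl1 was at 5.74 CPM in cluster 1 and 11.98 CPM in the other clusters, a ratio of 0.479 (0.361 to 0.626), on 62 and 444 UMIs. Within WT IL-33 it was at 5.35 CPM (56 UMIs) in cluster 1 and 8.43 CPM (14 UMIs) outside, and that ratio of 0.635 has an interval of 0.349 to 1.23, which includes 1. Il1rap, the accessory chain, was at 17.4 CPM in cluster 1 and 5.58 CPM in the other clusters, and Irak2 at 121 CPM in cluster 1 and 42.4 CPM in the other clusters. Myd88, Irak1, Irak4 and Traf6 were within 1.4-fold of the other clusters, at 40.6, 114, 26.7 and 19.6 CPM in cluster 1 and at 29.9, 96.7, 27.5 and 18.3 CPM outside. Il33 itself had 0 UMIs in cluster 1 and 3 in the other clusters.

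Genes of maturation and costimulation were higher in 10 of 10 measured cases (median log2 ratio 2.77). Cd83, a maturation marker of dendritic cells, was at 818 CPM in cluster 1 and 68.4 CPM in the other clusters, and Cd40, the receptor of T cell CD40L, at 92.2 CPM in cluster 1 and 1.94 CPM in the other clusters. Cd86, a ligand of CD28, was higher by less, at 474 CPM in cluster 1 and 195 CPM outside. Genes of MHC class II presentation did not move together: of 4 measured, Cd74, the invariant chain, was higher at 453 CPM in cluster 1 against 72.7 CPM outside, while the peptide-loading subunits H2-DMa and H2-DMb1 were lower and H2-Ab1, a class II beta chain, was at 10.4 CPM in cluster 1 and 9.47 CPM outside. Pattern recognition receptors split as well, with 6 of 11 higher and 3 lower (median log2 ratio 1.06 over all libraries, and -0.26 within WT IL-33). Against clusters 0 and 2 of WT IL-33, 4 of 12 were higher and 3 lower, with a median of 0.19. Tlr2 was at 1149 CPM in cluster 1 and 71.4 CPM outside, and its partner Tlr1 at 365 CPM in cluster 1 and 35.8 CPM outside. The LPS co-receptor Cd14 was at 2206 CPM in cluster 1 and 289 CPM outside. Tlr7, Tlr3 and Tlr4 were lower, with Tlr7, a sensor of single-stranded RNA, at 72.1 CPM in cluster 1 and 226 CPM outside. Tlr4 was barely past 2-fold, at 17.8 CPM in cluster 1 and 35.6 CPM outside.

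All 7 measured inflammatory enzymes and acute-phase genes were higher over all libraries (median log2 ratio 4.35). Within WT IL-33, 4 of 7 were at least 2-fold higher in cluster 1 than in the rest of that library (median 1.56). Against its clusters 0 and 2, 7 of 7 were (median 3.83). Ch25h, which makes 25-hydroxycholesterol, was at 361 CPM in cluster 1 and 5.50 CPM in the other clusters (ratio 65.5, 56.9 to 75.8). Acod1, which makes itaconate, was at 31.8 CPM in cluster 1 and 1.51 CPM outside, and Ptges, which makes prostaglandin E2, at 36.5 CPM in cluster 1 and 0.297 CPM outside. Of 7 measured receptors for lipids, metabolites and complement, 5 were higher. Gpr84, a receptor of medium-chain fatty acids, was in 96.1% of cluster 1 cells at 2261 CPM, and in 39.7% of other cells at 126 CPM. C3ar1, the receptor of complement C3a, was in 97.0% of cluster 1 cells and 53.2% of other cells. Cholesterol and lipid genes were higher in 7 of 11 cases, with Sqle, the squalene epoxidase of cholesterol synthesis, at 34.1 CPM in cluster 1 and 3.61 CPM outside, and lower in 1, the cholesterol exporter Abcg1, at 44.4 CPM in cluster 1 and 110 CPM outside. Glycolysis genes were higher in 3 of 13 cases, led by Pfkfb3, which makes the activator of phosphofructokinase, at 238 CPM in cluster 1 and 71.0 CPM outside. Within WT IL-33 the count was 1 of 13 against all its other cells and 3 of 13 against its clusters 0 and 2.

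Other lists moved in part. Scavenger receptors were higher in 3 of 7 measured cases (Marco, Msr1 and Cxcl16) and lower in 1 (Scarb2), so that their median log2 ratio was -0.58. Survival genes were higher in 6 of 11 cases, with the stress-induced Gadd45b at 297 CPM in cluster 1 and 6.82 CPM outside, while Bcl2l11, the pro-apoptotic BIM, was at 14.7 CPM in cluster 1 and 68.8 CPM outside. Within WT IL-33, 2 of 11 survival genes were higher and 1 lower. Among immediate early genes 8 of 10 were higher, with Fos at 36.7 CPM in cluster 1 and 1.16 CPM outside. Among heat shock genes 4 of 7 were higher, led by Hsph1 at 28.2 CPM in cluster 1 and 7.96 CPM outside. Within WT IL-33, 2 of 10 immediate early and 0 of 7 heat shock genes were at least 2-fold higher in cluster 1 than in all its other cells. Against its clusters 0 and 2 these were 4 of 10 and 4 of 7, with medians of 0.61 and 1.13. Both of these lists are known to rise during tissue dissociation, and the part of handling in these values was not tested. Of 12 disease-associated microglia genes, 2 were higher, Lpl (13.2-fold) and Fth1 (2.11-fold), and Igf1 was lower. Apoe, the apolipoprotein of that list, was within 2-fold, with a ratio of 0.521 (0.514 to 0.527) over all libraries. Against clusters 0 and 2 of WT IL-33 its direction turned, with 2306 CPM in cluster 1 and 1262 CPM in those clusters (ratio 1.83, 1.72 to 1.94).

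**Figure D2:**
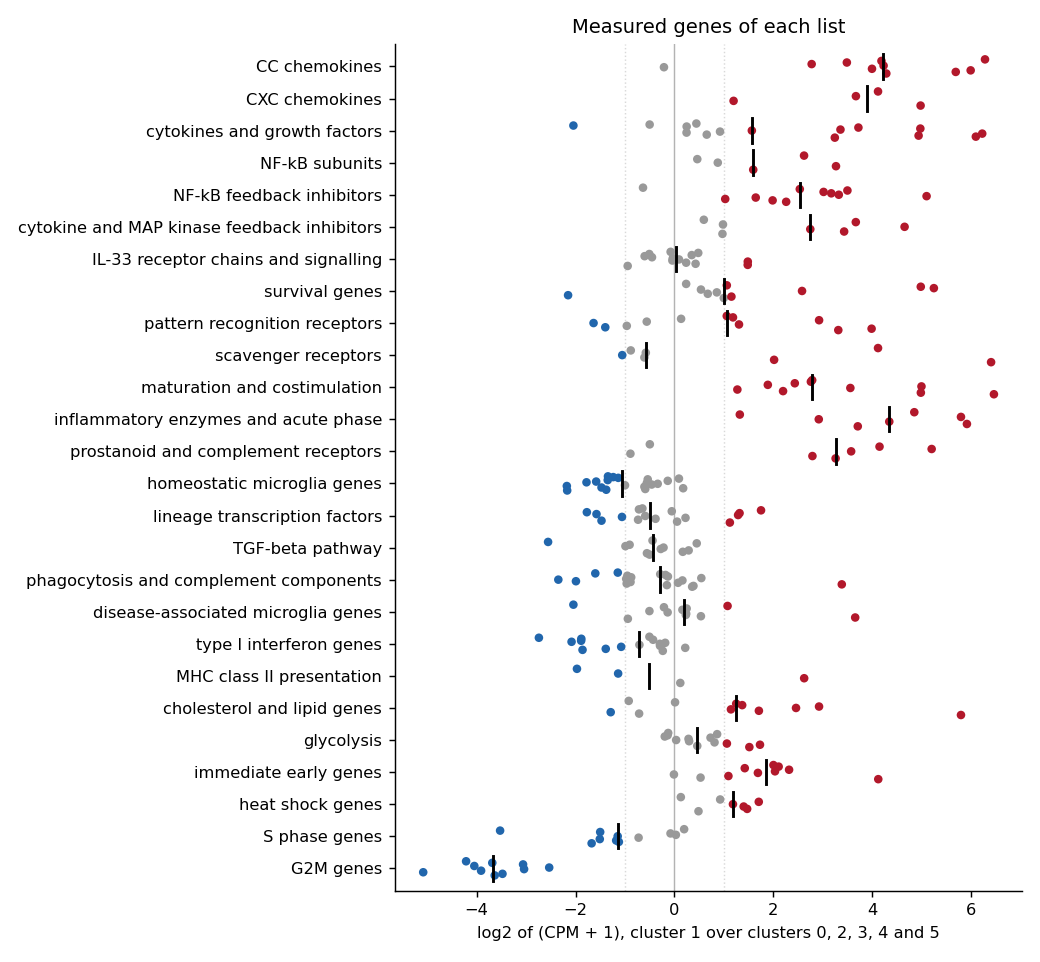
Log2 ratios of CPM + 1 in cluster 1 over clusters 0, 2, 3, 4 and 5 for the measured members of each gene list, with red points at least 1 higher, blue points at least 1 lower and black bars at list medians. Chemokines, enzymes and maturation genes lie to the right, homeostatic genes to the left with a median of -1.07, and G2M genes farthest left with a median of -3.66.

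Of 20 homeostatic microglia genes, 11 were at least 2-fold lower and 0 higher in cluster 1 (median log2 ratio -1.07). P2ry12, the ADP receptor that guides microglial processes, had 725 CPM (WT IL-33), 2347 CPM (cKO IL-33) and 2741 CPM (WT vehicle) in cluster 1, against 2121 CPM (WT IL-33), 3542 CPM (cKO IL-33) and 3608 CPM (WT vehicle) in the other clusters. Summed, it was 4.50-fold lower (4.40 to 4.60) in cluster 1, where 79.3% of cells still held a UMI against 99.3% of other cells. Gpr34, a lysophosphatidylserine receptor, had 260.3 CPM (WT IL-33), 1141 CPM (cKO IL-33) and 841 CPM (WT vehicle) in cluster 1, against 961 CPM (WT IL-33), 1434 CPM (cKO IL-33) and 1179 CPM (WT vehicle) in the other clusters. For both receptors, each library was lower inside the cluster than outside it. Siglech sat at the threshold, at 866 CPM in cluster 1 and 1732 CPM outside. Tmem119 was within 2-fold, at 966 CPM in cluster 1 and 1454 CPM outside.

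Lineage transcription factors went both ways, with 4 of 16 higher and 4 lower. Sall1, a factor largely restricted to microglia among macrophages, was at 162 CPM in cluster 1 and 451 CPM outside, and Cebpa at 28.1 CPM in cluster 1 and 85.6 CPM outside. Spi1, which encodes the myeloid factor PU.1, was 2.18-fold higher, and Cebpb was at 464 CPM in cluster 1 against 186 CPM outside. Within WT IL-33, 0 of 15 measured lineage factors were at least 2-fold higher and 2 lower than in all its other cells. Against its clusters 0 and 2, 1 of 15 was higher, Zeb2, and 5 were lower. Zeb2 was at 2076 CPM in cluster 1 and 863 CPM in those clusters, and Cebpb at 466 CPM and 463 CPM. In the TGF-beta pathway 1 of 11 measured genes passed 2-fold, the target Pmepa1, at 139 CPM in cluster 1 and 819 CPM outside (5.91-fold lower, 5.61 to 6.23). The receptor chain Tgfbr2 was at 335 CPM in cluster 1 and 298 CPM outside, and the inhibitory Smad7 was just within 2-fold, at 133 CPM in cluster 1 and 266 CPM outside. Of 19 genes of phagocytosis and complement, 4 were lower, among them Mertk, a receptor for apoptotic cells, at 115 CPM in cluster 1 and 461 CPM outside, and its ligand Gas6 at 31.4 CPM in cluster 1 and 164 CPM outside. Complement C3 was the 1 that was higher, at 33.1 CPM in cluster 1 and 2.27 CPM outside.

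Type I interferon genes, which include antiviral effectors, were lower in 7 of 15 measured cases and higher in 0 (median log2 ratio -0.71) over all libraries. Some of these directions turn with the cells compared, as given further on for clusters 0, 2 and 5. Ifi27l2a was at 25.2 CPM in cluster 1 and 174 CPM outside.

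The 15 lowest log2 ratios all belonged to genes of cell division, DNA replication or histones. Hist1h1b, a linker histone of S phase, had 5 UMIs in cluster 1 and 3723 in the other clusters. Kif11, Pbk, Esco2, Rrm2 and Hist1h3c had 0 UMIs in cluster 1, and set against a floor of 3 counts over the cluster they were at least 52.8-fold, 49.1-fold, 48.9-fold, 37.9-fold and 37.7-fold lower. All 10 measured G2M genes and 7 of 11 S phase genes were lower, although the S phase median of -1.15 became 0.43 among G1-called cells. Most UMIs of the proliferation marker Mki67 outside cluster 1 were in cluster 4, with 2834 of 3195 in its 223 G2M-called cells alone. In WT IL-33, Mki67 was at 6.21 CPM in cluster 1 and 775 CPM in cluster 4, against 1.94 CPM in cluster 0. Without cluster 4 among the other cells, the log2 ratio of Mki67 was 0.89 in place of -3.63.

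A comparison inside WT IL-33 holds the library and the injection constant, although not the animals. The 387 cells of that library outside cluster 1 were 144 in cluster 0, 102 in cluster 2, 67 in cluster 3, 15 in cluster 4 and 59 in cluster 5. Against all 387, 241 of 8676 measured genes (2.78%) were at least 2-fold higher in cluster 1 and 596 (6.87%) at least 2-fold lower. Against clusters 0 and 2 together, 606 of 8778 (6.90%) were higher and 941 (10.7%) lower. All 8 given markers were higher in both comparisons. Other lists had fewer members past 2-fold upward against all 387 cells than over all libraries. These were 5 of 10 CC chemokines, 6 of 14 cytokines and growth factors, 7 of 10 maturation genes and 4 of 11 cholesterol and lipid genes. Against clusters 0 and 2 the counts were 9 of 10, 8 of 14, 9 of 10 and 5 of 11 in that order. Il12b was at 1381 CPM in cluster 1 of WT IL-33, against 19.4 CPM in cluster 0, 16.0 in cluster 2, 253 in cluster 3, 64.6 in cluster 4 and 1555 in cluster 5. Ccl4 was at 5674 CPM in cluster 1, against 138, 108, 1639, 1721 and 5436 CPM in clusters 0, 2, 3, 4 and 5. Within the library, clusters 0 and 2 were thus low, clusters 3 and 4 between, and cluster 5 at about the level of cluster 1.

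Even so, the WT IL-33 cells of clusters 0 and 2 did not sit at the level of the other libraries: Nfkbiz was at 136 CPM in them, while the cells outside cluster 1 stood at 13.2 CPM for cKO IL-33 and at 13.4 CPM for WT vehicle. Their homeostatic genes were high, with P2ry12 at 725 CPM in cluster 1 and 3014 CPM in clusters 0 and 2 of WT IL-33 (4.16-fold lower in cluster 1, 3.98 to 4.34). Of 20 homeostatic genes, 9 were lower in cluster 1 by that comparison and 0 higher. Of the 11 genes listed as NF-kB feedback inhibitors, 5 were higher and 0 lower, among them Tnfaip3 at 238 CPM in cluster 1 and 118 CPM in clusters 0 and 2. Smaller numbers of cells limit these values, with 17 Il12b UMIs in the 246 cells of clusters 0 and 2.

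Closest to cluster 1 in the given markers was cluster 5. In WT IL-33, 582 of 8582 measured genes (6.78%) were at least 2-fold higher in cluster 1 than in the 59 cells of cluster 5, and 483 (5.63%) at least 2-fold lower. Of the 8 markers only Marco passed 2-fold, at 353 CPM in cluster 1 and 172 CPM in cluster 5 (ratio 2.04, 1.58 to 2.69), and 0 of 20 homeostatic genes did. Other lists that were higher over all libraries mostly did not separate the 2 clusters. In cluster 1, 0 of 10 CC chemokines were higher and 1 lower, and 1 of 14 cytokines was higher and 4 lower. Of 10 maturation genes 1 was higher and 1 lower, and of 7 inflammatory enzymes 2 were higher and 2 lower. Immediate early genes were higher in 3 of 10 cases and lower in 0. Type I interferon genes differed most, with 15 of 16 at least 2-fold lower in cluster 1 and a median log2 ratio of -5.07. Ifit2, an interferon-induced RNA-binding protein, was at 6.88 CPM in cluster 1 and 862 CPM in cluster 5, and Rsad2, the antiviral viperin, at 4.68 CPM in cluster 1 and 538 CPM in cluster 5. Cxcl10, an interferon-induced ligand of CXCR3, was at 207 CPM in cluster 1 and 7000.0 CPM in cluster 5 (33.9-fold lower in cluster 1, 31.9 to 35.9). Against clusters 0 and 2, interferon genes were not lower, with 5 of 11 at least 2-fold higher in cluster 1 and 0 lower. Those 5 were Isg15, Ifitm3, Usp18, Ifit1 and Ifit3, which rested on 3 to 23 UMIs each in clusters 0 and 2.

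**Figure D3:**
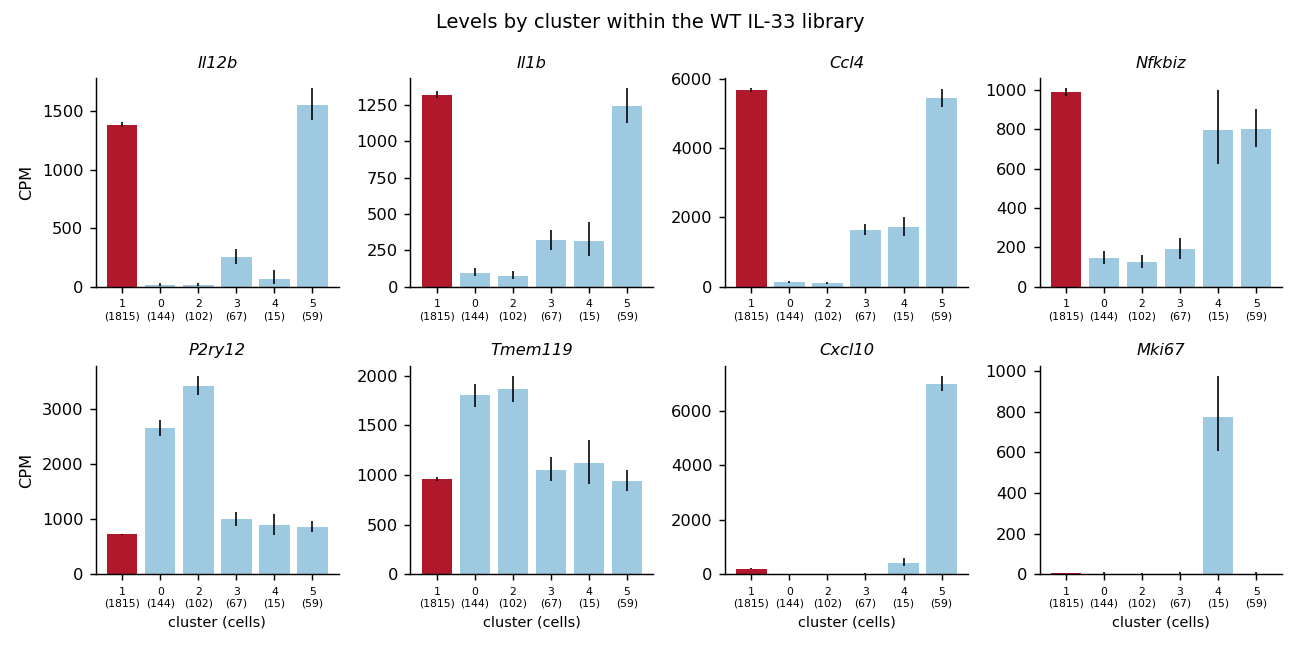
CPM of 4 given markers, 2 homeostatic genes, the interferon-induced Cxcl10 and the proliferation gene Mki67 by deposited cluster within WT IL-33, with cell numbers in parentheses and exact Poisson 95% intervals. Cluster 1 resembles cluster 5 in Il12b, Il1b, Ccl4 and P2ry12 and differs from it in Cxcl10, at 207 against 7000.0 CPM.

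The 55 cells of cluster 1 from the other libraries matched their cluster only in part. Cells were thinned to 3000 UMIs each, at which depth the number of the 8 markers per cell can be compared. The WT IL-33 cells of cluster 1 held a median of 6 markers, and 69.1% of 1565 held at least 5. The 35 cKO IL-33 cells held a median of 1 and the 19 WT vehicle cells deep enough a median of 0, and 0 cells of either held 5 or more. Outside cluster 1, none of the 8 was held by 89.2% of cells from cKO IL-33 or by 90.8% from WT vehicle. In the cKO IL-33 cells of the cluster, Ccl4 UMIs were in 14 of 35 cells and summed to 392, while Il12b, Ccl22 and Marco were at 0. Cd14 had 2265 CPM (WT IL-33), 380.4 CPM (cKO IL-33) and 336 CPM (WT vehicle) in cluster 1. Cd74 was as high in the cKO IL-33 cells of the cluster, at 557 CPM, as in its WT IL-33 cells at 453 CPM, but came from 14 of 35 cells.

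Spread between cells was measured in the 1619 cells of cluster 1 with 3000 UMIs or more, after thinning, as excess squared CV, the variance less the mean divided by the squared mean. Sampling noise alone gives 0. Over 938 genes at 0.5 UMIs or more per thinned cell its median was 0.166 (10th to 90th percentile 0.0525 to 0.559), and 37 genes were above 1. Of the markers 7 were among these. Il12b averaged 4.30 ± 13.3 UMIs (SD, 1619 cells) with a median of 0 and a highest value of 177. It had an excess squared CV of 9.30 and was at 0 in 57.7% of cells, where a Poisson spread about the same mean would leave 1.36%. The tenth of cells with most Il12b held 73.4% of its UMIs. Marco had an excess squared CV of 7.16 and was at 0 in 70.8% of cells, and Ccl22 had 3.26 and was at 0 in 55.3%.

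More even were Ccl4, with a mean of 17.9 ± 24.2 UMIs, a median of 8 and an excess of 1.77, and Ccl3, with 11.6 ± 17.1 UMIs, a median of 6 and an excess of 2.09. Each was at 0 in under 20% of cells (18.1% and 16.9%). Il1b lay between, with a mean of 4.21 ± 6.95 UMIs, an excess of 2.48 and 33.0% of cells at 0, and Tnfaip2 had an excess of 1.31. Nfkbiz was the most even of the 8 at 0.443, with a mean of 2.99 ± 2.64 UMIs. Microglial identity genes were more even still, with 0.110 for Cx3cr1 and 0.299 for Tmem119, while the lowered P2ry12 had 0.903. The 10 largest values belonged to Saa3, Cxcl10, Il12b, Marco, Ccl5, Ccl22, Dusp2, Lpl, Il1b and Ms4a6d. Saa3, an acute-phase serum amyloid, was at 0 in 94.6% of thinned cells and reached 146 UMIs in 1 cell. The 5 smallest belonged to Cct2, Elovl1, Rer1, Ostc and Eif3e, genes of protein folding, lipid synthesis, secretion and translation, all slightly below 0.

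Over the 28 pairs of the 8 markers, Spearman's rho across cells lay between 0.049 and 0.82, with a median of 0.30. Ccl3 and Ccl4 were closest, at 0.82, Ccl4 and Il12b were at 0.51, and Il1b and Marco lowest, at 0.049. Sparse counts lower such values, and Marco was at 0 in 70.8% of these cells. Ccl4 ran against Tmem119 at -0.38 and against P2ry12 at -0.30. All cells were thinned to the same depth and nearly all came from 1 library, and a fixed total makes a gene that takes many UMIs lower the others slightly.

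**Figure D4:**
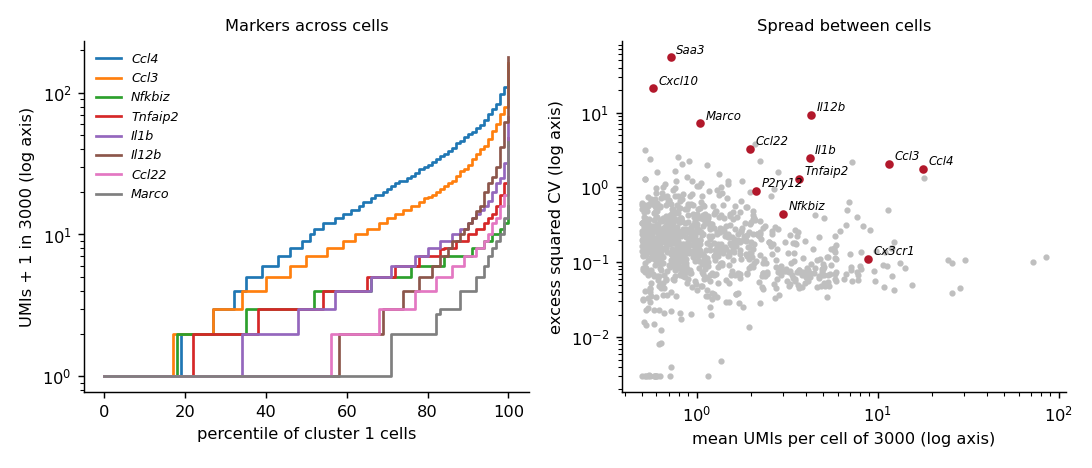
Left, UMIs + 1 (log axis) of each marker across cluster 1 cells thinned to 3000 UMIs, ordered from lowest to highest for each gene. Right, excess squared CV against the mean for 938 genes (log axes, with 13 genes at or below 0.003 drawn at that edge), where Saa3, Cxcl10, Il12b and Marco stand highest and Cx3cr1 low.

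The WT IL-33 library held cells of both sexes, which allows a view inside cluster 1 that the other libraries do not. Its 1815 cells of cluster 1 included 595 with Xist and no Y-linked UMIs (Xist-only), 584 with Y-linked and no Xist UMIs (Y-only), 284 with both and 352 with neither, where the Y-linked genes were Ddx3y, Eif2s3y, Kdm5d and Uty. The number of mice behind these cells is not known, so sex cannot be told apart from differences between animals. Of all Xist-only cells of the library 74.2% (71.0 to 77.2%) were in cluster 1, and of all Y-only cells 87.2% (84.4 to 89.6%). Of 3703 genes off the X and Y chromosomes at 50 CPM or more, 4 (0.108%) were at least 2-fold higher and 11 (0.297%) at least 2-fold lower in Xist-only cells of cluster 1. All 8 markers were lower in Xist-only cells, 4 of them by at least 2-fold.

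The named gene with the largest difference was Ddit4, a stress- and glucocorticoid-induced inhibitor of mTOR, at 136 CPM in Xist-only and 39.0 CPM in Y-only cells (ratio 3.49, 2.82 to 4.34). Il12b was at 738 CPM in Xist-only and 1986 CPM in Y-only cells (ratio 0.372, 0.354 to 0.390). Ccl3 was at 2144 CPM in Xist-only and 5263 CPM in Y-only cells, with a median of 3 UMIs per thinned Xist-only cell and 9 per thinned Y-only cell. Saa3 was at 117 CPM in Xist-only and 295 CPM in Y-only cells, and Dusp1, a MAP kinase phosphatase, at 34.6 CPM in Xist-only and 84.4 CPM in Y-only cells. Beside Ddit4, the genes at least 2-fold higher in Xist-only cells were Sgk1, Zfp36l2 and Tbc1d16, named after their values were seen, with Sgk1 at 158 CPM in Xist-only and 68.7 CPM in Y-only cells. P2ry12 was at 769.5 CPM in Xist-only and 548 CPM in Y-only cells. Median depth was close, at 3982 UMIs in Xist-only and 3876.5 in Y-only cells, and in thinned cells the log2 ratio of Il12b was -1.54 where unthinned sums gave -1.43. Outside cluster 1 of the same library, Il12b differed most of the 8, at 246 CPM in 207 Xist-only cells and 1087 CPM in 86 Y-only cells, while Ccl22 was at 139 CPM in Xist-only and 141 CPM in Y-only cells (ratio 0.984, 0.703 to 1.40). The cells outside cluster 1 pool clusters 0, 2, 3, 4 and 5, which differ in Il12b as given above. Their median Xist UMIs per cell were 4, 8, 0, 7 and 2 in that order, and the part of cluster makeup was not tested. Apart from Ccl22 outside cluster 1, whose interval includes 1, counting error alone is smaller than the differences given here, but they rest on 1 library and have no replicate. Counting error leaves out spread between cells. That spread is largest for Saa3, which few cells hold (0 in 94.6% of thinned cluster 1 cells, up to 146 UMIs in 1 cell).

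The cells with both Xist and Y-linked UMIs stood apart in depth. They made up 13.9% of the WT IL-33 library, 0.112% of that from cKO IL-33 and 0.258% of that from WT vehicle. Those in cluster 1 had a median of 11290 UMIs and 3735 genes, and 93.1% of all such cells of the library were in cluster 1. Their marker levels lay between those of Xist-only and Y-only cells for Ccl4 (3440 CPM in Xist-only, 7934 in Y-only and 4642 in both), Ccl3, Il12b and Il1b. For the other 4 markers they were no higher than Xist-only cells, as with Tnfaip2 at 974 CPM in Xist-only, 1484 CPM in Y-only and 952 CPM in these cells, and for P2ry12 above both, at 945 CPM in these cells. Whether they are droplets with more than 1 cell was not tested. Without them, 954 genes were at least 2-fold higher and 1143 at least 2-fold lower in cluster 1 than in the other clusters.

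**Figure D5:**
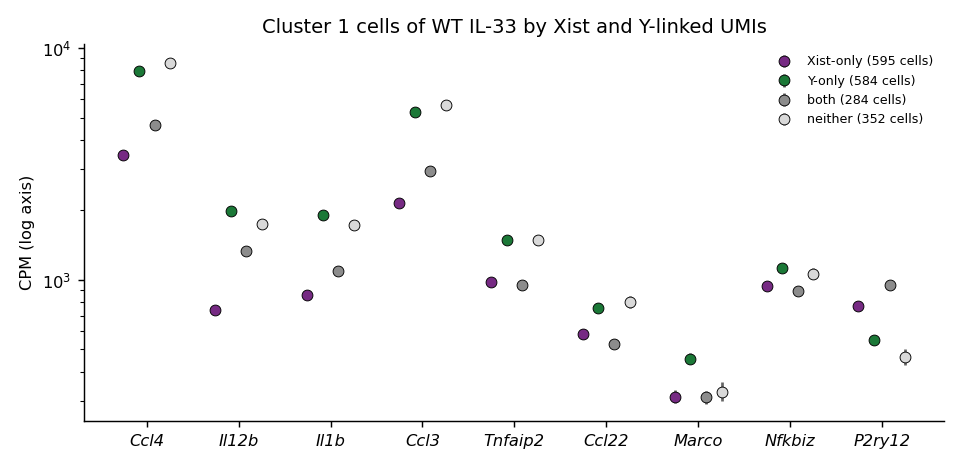
CPM (log axis) of the 8 markers and P2ry12 in cluster 1 cells of WT IL-33, split by Xist and Y-linked UMIs, with exact Poisson 95% intervals. Xist-only cells lie below Y-only cells for all 8 markers and above them for P2ry12.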

How the data were processed

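Raw UMI counts for 20586 genes were deposited by the authors as 1 matrix with 7598 cell columns, and a second deposited file lists, per the file headers, each cell's library, cluster, sex call, phase call, cell-cycle score and percent of mitochondrial and ribosomal UMIs. Of these, the score was not used. Tools named by the submitters' processing notes are Cell Ranger 5.0 and Seurat 4.0.1, and builds named are GRCm38 and mm10, in no stated role. How the authors filtered cells or removed doublets is not known here, and no doublet caller was run.

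From these counts, UMIs were summed over cells and expressed as CPM. CPM have exact Poisson, ratios exact conditional binomial and shares Clopper-Pearson 95% intervals, for counting error only. No test was possible with a single library in each group. Measured genes had 10 CPM in either sum, calls were 2-fold, log2 ratios used a pseudocount of 1 CPM, and the floor for 0 was 3 counts. Shares of cells and spread used cells thinned at random to 3000 UMIs where stated, which kept 1619 of 1870 cells of cluster 1 and 5463 of 5728 others. Other shares are unthinned, although depth differed. Named were the 8 given markers, the 15 highest and 15 lowest log2 ratios, up to 4 members of each of 27 lists, 15 genes by spread and 5 by the ratio of Xist-only to Y-only cells, which replaced the planned female and male calls because female calls include cells with both. Further list members and reference genes were named after their values were seen. The members and lists were chosen with earlier results of these data known. Steps were tested on simulated data. Python 3.11.15, numpy 2.4.6, pandas 2.3.3 and scipy 1.17.1 were used.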

Additional observations from a re-analysis of the deposited data

How the results depend on the processing

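No paired analysis was possible because each group is 1 library. The counts of genes at least 2-fold higher and lower in cluster 1 (934 and 1034) stayed within 1.5 times under the other alternatives and became 500 and 425 with a minimum of 50 CPM, 2731 and 5713 with no minimum, 241 and 596 within WT IL-33, and 606 higher against clusters 0 and 2 of WT IL-33. The minimum of 50 CPM left 4114 genes and no minimum 19034, in place of 8836. The cause of each change was not tested. Cells of WT IL-33 alone gave 958 and 1081. The share of WT IL-33 cells in cluster 1 (82.4%) was 84.6% in cells of at least 3000 UMIs, 79.4% in female-called cells, 85.5% in male-called cells and 80.7% without cells holding both Xist and Y-linked UMIs. For the 107 of 117 named genes with a log2 ratio of at least 1 up or down, 18 of 1712 log2 ratios under 16 alternatives turned round. For the other 10 genes 7 of 160 did, 6 of them H2-Ab1 (main value 0.12, lowest -0.98 within WT IL-33) and 1 Apoe (0.87 against clusters 0 and 2 of WT IL-33, main value -0.94). Il1rl1, called lower by CPM, was among the other 10, as the pseudocount put its log2 ratio at -0.94. Of the 18 that turned round for the 107 genes, those within WT IL-33 were Cxcl13 (-0.36) and Cxcl10 (-2.83). Against cluster 0 they were Mki67 (0.83) and Rsad2 (0.53), in G1-called cells Mki67 (1.52) and Nusap1 (0.14), and without cluster 4 Mki67 (0.89). Against clusters 0 and 2 of WT IL-33 they were Hist1h1b (0.36), Hmmr (0.13), Ube2c (0.36), Birc5 (0.47), Tpx2 (0.47), Mki67 (1.81), Nusap1 (0.56), Ifi27l2a (0.29), Rsad2 (1.47), Ifi204 (0.51) and Mcm5 (1.08). List medians turned round for CXC chemokines (-0.36) and pattern recognition receptors (-0.26) within WT IL-33, and for S phase genes with a minimum of 50 CPM (0.11), in G1-called cells (0.43) and against clusters 0 and 2 (0.0078). No other list median past 1 did under those of the 19 alternatives that gave it a value, and neither did any value of the 8 markers. The G2M list had no value in G1-called cells, without cluster 4 or against clusters 0 and 2, where several of its members turned round as given above. The spread of the markers stayed within 1.5 times in 46 of 48 values. The comparisons without cluster 4, with cluster 1 of WT IL-33 alone and against its clusters 0 and 2 were chosen after the data were seen. Depth limits the 55 cells of cKO IL-33 and WT vehicle most, where 3 counts are 13.9 and 25.2 CPM.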

Other observations

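The deposited phase calls put 12.4% of cluster 1 cells in G2M and 28.1% in S, against 12.97% and 26.5% of the cells of the other clusters. The 231 G2M-called cells of cluster 1 held Mki67 at 15.7 CPM and Top2a, a topoisomerase of dividing cells, at 15.7 CPM. The 223 G2M-called cells of cluster 4 held Mki67 at 1440.3 CPM and Top2a at 1102 CPM. A Mki67 UMI was found in 3.90% of the G2M-called cells of cluster 1 and in 91.0% of those of cluster 4. The marker Il12b was at 1377 CPM in G2M-called, 1090.1 CPM in S-called and 1435 CPM in G1-called cells of cluster 1.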
